A study of Homo sapiens with 6 samples.

Results

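The genes described here are 10 members of the NF-kB system: the subunit genes NFKB1, NFKB2, REL and RELB, the inhibitor and feedback genes NFKBIA, NFKBIZ, TNFAIP3, TNIP1 and BIRC3, and the adhesion molecule gene ICAM1. They were taken by symbol from a table of 27852 symbols after each transcript had been counted once and summed by gene. All 10 were present. The choice of genes was made with earlier results of these data known. Poly(A) RNA came from HSC3, HSC4 and SAS, established human oral squamous carcinoma lines, each grown in DMEM, a common culture medium, and in HPLM, whose composition follows that of plasma. Both media held heat-inactivated fetal bovine serum and an antibiotic and antimycotic mix. There was 1 library for each line and medium, 6 in all and 3 per medium. The 3 lines therefore take the place of replicates, and a difference within 1 line has no replicate check. Neither the time in HPLM nor the number of cultures is stated in the labels.

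NF-kB is a family of dimeric transcription factors that are held inactive in resting cells by inhibitory IkB proteins. Cytokines such as tumour necrosis factor and interleukin 1 activate kinases that mark the inhibitor for destruction, and the freed dimer switches on genes of inflammation, survival and adhesion. Several of those target genes encode the system's own subunits and brakes, so their RNA levels are often read as a sign of its activity. In squamous epithelium and its tumours the system is known for driving cytokine and chemokine production.

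Estimated counts per library summed to between 17715962 and 20171750. The 10 squamous epithelial markers (KRT5, KRT14, KRT17, KRT6A, CDH1, TP63, DSG3, EPCAM, SFN and ITGA6) summed to between 2664 and 6491 CPM (counts scaled to library size) in DMEM and between 1938 and 5577 in HPLM, although KRT14 lay at 4.39 and 10.8 CPM in the HSC4 libraries. Between media 4 of these 10 had an unadjusted edgeR p under 0.05, EPCAM higher in HPLM and KRT5, KRT17 and SFN lower, and 0 passed after adjustment. The median log2 ratio of the list was lowest for SAS (−0.57), with −0.03 for HSC3 and 0.04 for HSC4. The 8 fibroblast markers summed to between 2.91 and 13.8 CPM, with COL3A1 and THY1 at 0, and the 8 endothelial markers to between 1.95 and 4.77, with KDR at 0. The 10 leukocyte markers summed to between 93.5 and 151.9 CPM in DMEM and between 122 and 178.2 in HPLM, and were higher in HPLM in each line. CD68, CD74 and LCP1 made up most of that sum, the defining leukocyte gene PTPRC lay at 1.48 to 2.3 CPM, and TYROBP was at 0 in every library. The part of these marker levels in the differences below was not tested. In bulk RNA fewer cells expressing a gene and less RNA per cell cannot be told apart.

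The first comparison asked which of the genes differ between HPLM and DMEM. In HSC3 and SAS the feedback genes and ICAM1 were higher in HPLM, while in HSC4, which had the highest level of 9 of the 10 genes in DMEM, most were nearly level. The difference was above 1.5-fold for 5 of the 10 genes in HSC3, where 7.57% of all tested genes were, for 8 in SAS (9.41% of all), and for 1 in HSC4 (7.99% of all). None of the 10 was lower in HPLM by more than 1.5-fold in any line, whereas 9.31% of all tested genes (HSC3), 6.84% (HSC4) and 6.76% (SAS) were. As the 10 were chosen with earlier results of these data known, these shares are a description and not a test of the group. The median log2 ratio of HPLM over DMEM came to 0.66 for HSC3, −0.02 for HSC4 and 0.77 for SAS, beside 0.00 in each line over all 13236 tested genes. All 10 genes were high enough to be tested, and 0 of the 10 passed the edgeR quasi-likelihood test with the line as a block (Benjamini-Hochberg adjusted p under 0.05), beside 0.00756% of all tested genes that did. At an unadjusted p under 0.05 edgeR counted 4 of the 10, NFKBIZ, TNFAIP3, TNIP1 and RELB, all higher in HPLM, beside 5.57% of all tested genes that were higher at that level. DESeq2 called 1 of the 10, NFKBIZ, and 0.96% of all genes, and limma-voom and limma-trend called 0 (0.068% and 0% of all genes).

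**Figure D1:**
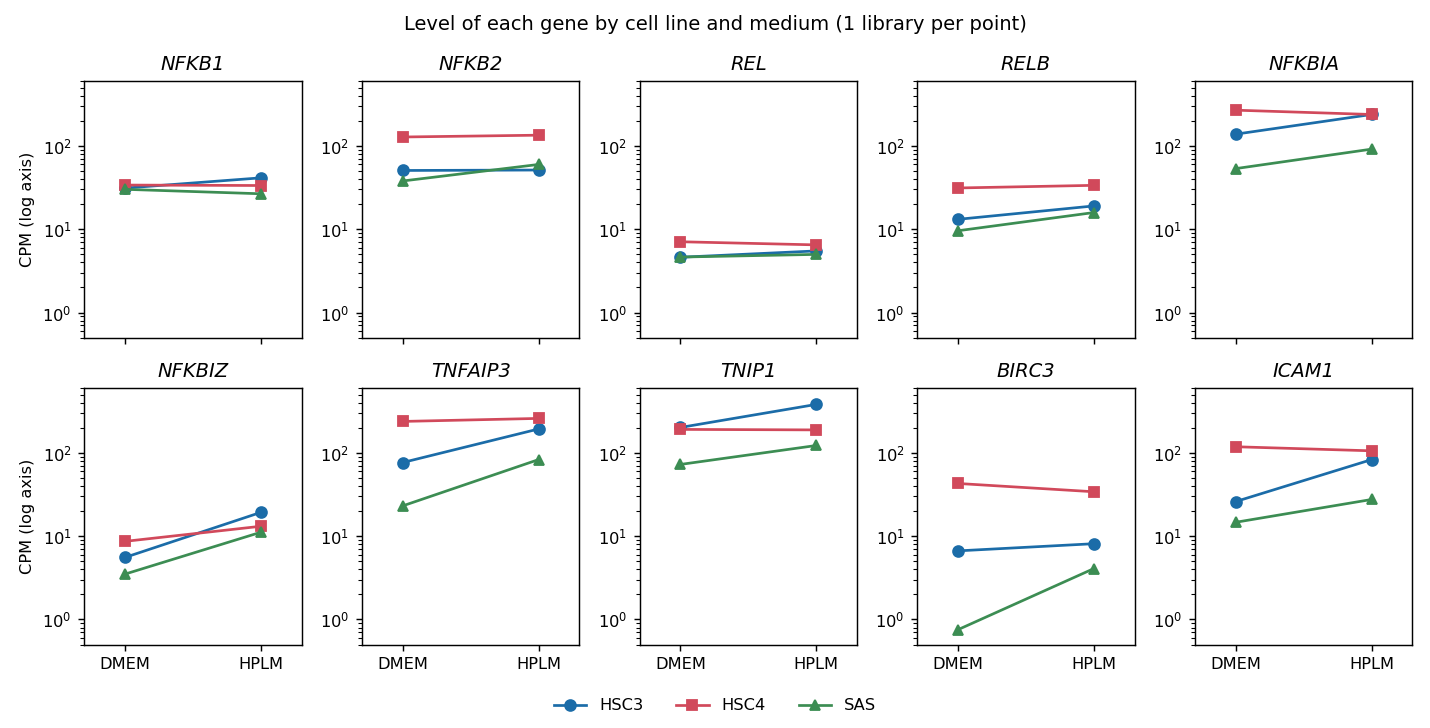
CPM (log axis) of the 10 genes in DMEM and HPLM, with 1 point per library and a line joining the media of each cell line. HSC4 lies highest in DMEM for all but TNIP1 and differs by more than 1.5-fold between media only for NFKBIZ, while HSC3 and SAS lie higher in HPLM for NFKBIA, NFKBIZ, TNFAIP3, TNIP1 and ICAM1.

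Of the subunit genes, REL and NFKB1 varied least. All values are CPM on a scale already corrected for transcript length, so that levels of different genes can be set side by side. NFKB1, which encodes an inhibitory precursor that is cut to an active subunit, lies on chromosome 4 (102501329 to 102617302, plus strand; GENCODE 29, GRCh38, as for all gene positions here). With DMEM given first throughout, it measured 31.1 CPM in DMEM against 41.4 in HPLM for HSC3, 33.9 against 33.5 for HSC4, and 30.1 against 26.6 for SAS. The media overlapped, and the fitted log2 fold change was 0.07 ± 0.14 (SE, 3 lines; edgeR adjusted p = 0.895). REL, whose product is a strong transcriptional activator best known from lymphocytes, lies on chromosome 2 (60881521 to 60931610, plus strand), where 2 non-coding RNA genes on the same strand overlap it. It was the lowest subunit gene, between 4.61 and 7.07 CPM in all 6 libraries. Its log2 fold change was 0.07 ± 0.19 (edgeR adjusted p = 0.929).

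NFKB2 and RELB encode the partners of the non-canonical branch, in which an NFKB2 precursor is processed and pairs with RELB. NFKB2, on chromosome 10 (102394110 to 102402529, plus strand), measured 50.7 CPM in DMEM against 51.3 in HPLM for HSC3, 127.8 against 134.4 for HSC4, and 37.9 against 59.9 for SAS. Only the SAS pair was apart, and the log2 fold change was 0.25 ± 0.14 (SE, edgeR adjusted p = 0.615). RELB, on chromosome 19 (45001430 to 45038198, plus strand), measured 13.1 against 19.0 CPM for HSC3, 31.2 against 33.6 for HSC4, and 9.59 against 15.9 for SAS. It was higher in HPLM in all 3 lines, and its log2 fold change reached 0.44 ± 0.15 (SE; edgeR adjusted p = 0.428). RELA, which encodes the main activating subunit of the canonical branch, was not among the 10. It measured 91.1 against 91.2 CPM for HSC3, 141.7 against 123.5 for HSC4, and 71.6 against 76.4 for SAS, and its log2 fold change came to −0.04 ± 0.10 (SE; edgeR adjusted p = 0.935).

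NFKBIA encodes IkB-alpha, the inhibitor that NF-kB itself induces and that carries the dimer back out of the nucleus. The gene lies on chromosome 14 (35401511 to 35404749, minus strand). It measured 138.2 CPM in DMEM against 238.3 in HPLM for HSC3, 268.2 against 238.1 for HSC4, and 53.4 against 91.4 for SAS. HSC3 thus reached in HPLM the level that HSC4 had there, and the ratio was 1.73-fold in HSC3 and 1.71-fold in SAS against 0.888-fold in HSC4. The fitted log2 fold change was 0.46 ± 0.20 (SE, edgeR adjusted p = 0.524).

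NFKBIZ encodes IkB-zeta, a nuclear protein of the inhibitor family that acts as a cofactor for a subset of NF-kB targets. The gene lies on chromosome 3 (101827991 to 101861022, plus strand). It measured 5.55 against 19.3 CPM for HSC3, 8.65 against 13.1 for HSC4, and 3.5 against 11.1 for SAS. The lowest HPLM library lay above the highest DMEM library, which held for 1 of the 10 genes and for 1.41% of all tested genes. The log2 fold change was 1.34 ± 0.26 (SE, higher in 3 of 3 lines; edgeR adjusted p = 0.343 and unadjusted p = 0.0022). With DESeq2 the adjusted p was 0.00762, and over the 12 alternatives the adjusted p ran from there to 1.

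TNFAIP3 encodes the ubiquitin-editing enzyme A20, which shuts off signalling below the tumour necrosis factor receptor. On chromosome 6 (137867188 to 137883312, plus strand), it measured 76.4 CPM in DMEM against 193.1 in HPLM for HSC3, 237.7 against 258.4 for HSC4, and 23.1 against 82.9 for SAS. SAS thus had the widest ratio, 3.58-fold, then HSC3 with 2.53-fold and HSC4 with 1.09-fold. The log2 fold change was 1.08 ± 0.32 (SE, higher in 3 of 3 lines; edgeR adjusted p = 0.401). An antisense gene overlaps its start. The libraries kept strand, per the labels, but whether quantification used it is not stated, so the genes may share reads.

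TNIP1 encodes a ubiquitin-binding partner of the TNFAIP3 protein. It lies on chromosome 5 (151029945 to 151093577, minus strand) and was the most abundant of the 10 by its mean over libraries. It measured 201.2 against 380.7 CPM for HSC3, 190.7 against 188.1 for HSC4, and 72.4 against 122.3 for SAS. HSC3 and SAS were apart and HSC4 was level, and the fit gave 0.55 ± 0.19 (SE; edgeR adjusted p = 0.430).

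BIRC3 encodes a ubiquitin ligase that blocks cell death below the tumour necrosis factor receptor and holds the non-canonical branch in check. On chromosome 11 (102317450 to 102339403, plus strand), it measured 6.65 CPM in DMEM against 8.11 in HPLM for HSC3, 42.8 against 34.0 for HSC4, and 0.754 against 4.08 for SAS. The SAS ratio of 4.88-fold starts from under 1 CPM, and the log2 fold change was 0.41 ± 0.42 (SE, edgeR adjusted p = 0.785), or −0.067 without both SAS libraries.

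ICAM1, whose product binds leukocyte integrins at the cell surface, lies on chromosome 19 (10270835 to 10286615, plus strand), where 2 antisense genes overlap it with the same limit. It measured 26.0 against 82.8 CPM for HSC3, 118.1 against 105.5 for HSC4, and 14.7 against 27.5 for SAS. HSC3 had the widest ratio, 3.18-fold, then SAS with 1.87-fold, and HSC4 had 0.894-fold. The log2 fold change was 0.79 ± 0.33 (SE, edgeR adjusted p = 0.504).

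**Figure D2:**
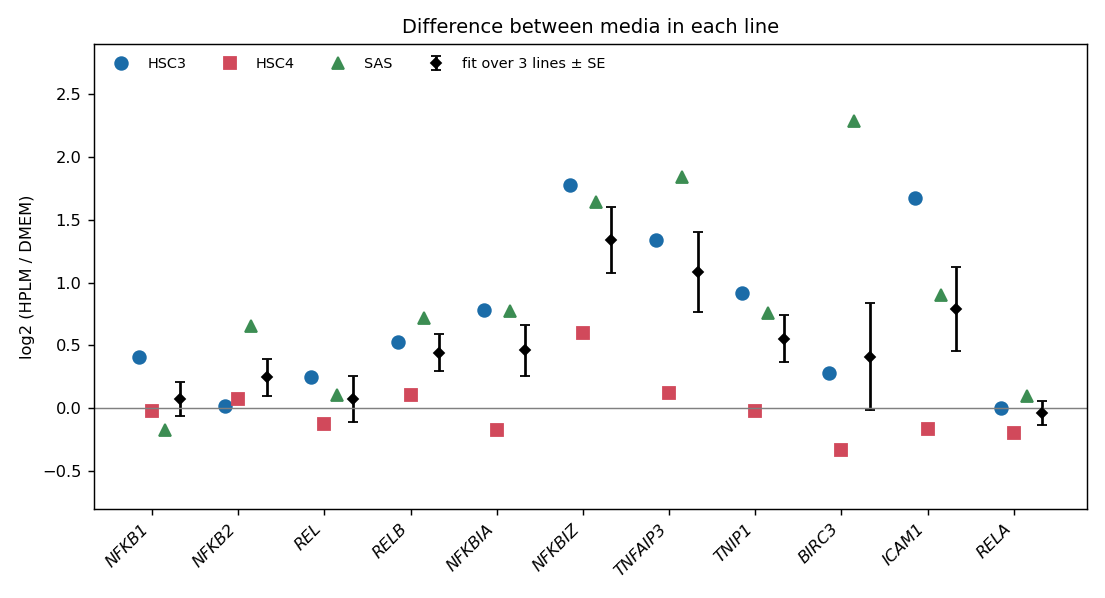
Log2 ratio of HPLM over DMEM for the 10 genes and RELA in each line (coloured points, 1 library per medium) and the fitted log2 fold change with its SE (black). HSC4 is the lowest of the 3 lines for all of the 10 genes except NFKB1 and NFKB2, and is above 0.5 only for NFKBIZ.

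HSC4 had the smallest log2 ratio of the 3 lines for 8 of the 10 genes, as it did for 33.4% of all tested genes. In 5 of the 10, REL, NFKBIA, TNIP1, BIRC3 and ICAM1, the value was higher in HPLM in HSC3 and SAS and lower in HSC4. That pattern of signs held for 11.3% of all tested genes, and lines differing in direction in any way for 65.7%. A difference in response between lines leaves no residual degrees of freedom in this design and was not tested. The lines lay closer together in HPLM than in DMEM for 8 of the 10 genes (54% of all tested genes, on CPM + 1). The highest line stood over the lowest by 10.3-fold in DMEM and 3.12-fold in HPLM for TNFAIP3, by 8.06-fold and 3.83-fold for ICAM1, and by 5.03-fold and 2.61-fold for NFKBIA. NFKB1 (1.13-fold and 1.55-fold) and TNIP1 (2.78-fold and 3.11-fold) were the exceptions.

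The second comparison asked how the lines differ from each other, with the medium as a term and 3 pairs of lines, any 2 of which share the libraries of a line. The DMEM and HPLM libraries of a line took the place of its replicates. A response to the medium that differs between lines therefore enters the error of these tests. SAS had the lowest level of 9 of the 10 genes in DMEM and of 9 in HPLM, against 35% and 34.1% of all tested genes. HSC4 had the highest level of 9 in DMEM and of 6 in HPLM, against 33.9% and 33.5% of all tested genes.

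Between SAS and HSC4, 7 of the 10 genes passed the edgeR test (adjusted p under 0.05 over all genes), and all 7 were lower in SAS, beside 41.3% of all tested genes called in either direction and 21.3% called lower. BIRC3 had the largest difference, its log2 fold change being −4.09 ± 0.56 (SE; edgeR adjusted p = 0.00336). ICAM1 had −2.54 ± 0.42 (edgeR adjusted p = 0.0059) and TNFAIP3 −2.52 ± 0.40 (edgeR adjusted p = 0.00535). NFKBIA had −1.88 ± 0.26, NFKB2 −1.45 ± 0.18, RELB −1.39 ± 0.18 and TNIP1 −1.03 ± 0.23. NFKBIZ (−0.77 ± 0.32), REL (−0.50 ± 0.23) and NFKB1 (−0.25 ± 0.17) did not pass.

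Between SAS and HSC3, 3 of the 10 passed, NFKBIA (−1.38 ± 0.25), TNFAIP3 (−1.42 ± 0.38) and TNIP1 (−1.56 ± 0.23), all lower in SAS, beside 39.4% of all tested genes called and 20.6% called lower. The share of the 10 that passed lies below that of all genes. The feedback genes BIRC3 (−1.66 ± 0.56) and NFKBIZ (−0.73 ± 0.32) and ICAM1 (−1.28 ± 0.41) did not pass. Nor did the 4 subunit genes, with REL at −0.07 ± 0.23, NFKB2 at −0.08 ± 0.18, and NFKB1 (−0.35 ± 0.17) and RELB (−0.35 ± 0.18) further below 0. The count was 1, TNIP1 alone, without the SAS DMEM library and also without the HSC3 HPLM library. It was 6 without either HSC4 library, where NFKBIZ, BIRC3 and ICAM1 also passed.

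Between HSC4 and HSC3, 3 of the 10 passed, all higher in HSC4, beside 37.4% of all tested genes called and 18.8% called higher. They were the non-canonical pair NFKB2 (1.36 ± 0.18, SE; edgeR adjusted p = 0.00331) and RELB (1.04 ± 0.18; edgeR adjusted p = 0.00753), and BIRC3 (2.42 ± 0.49; edgeR adjusted p = 0.0126). ICAM1 (1.26 ± 0.40) and TNFAIP3 (1.10 ± 0.38) did not pass. Nor did NFKBIA (0.50 ± 0.25), REL (0.43 ± 0.23) or NFKBIZ (0.03 ± 0.31). TNIP1 (−0.53 ± 0.23) and NFKB1 (−0.10 ± 0.17) were lower in HSC4 and did not pass either. The count was 1, NFKB2 alone, without the HSC3 DMEM library, and 6 without the HSC4 HPLM library, where NFKBIA, TNFAIP3 and ICAM1 also passed.

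**Figure D3:**
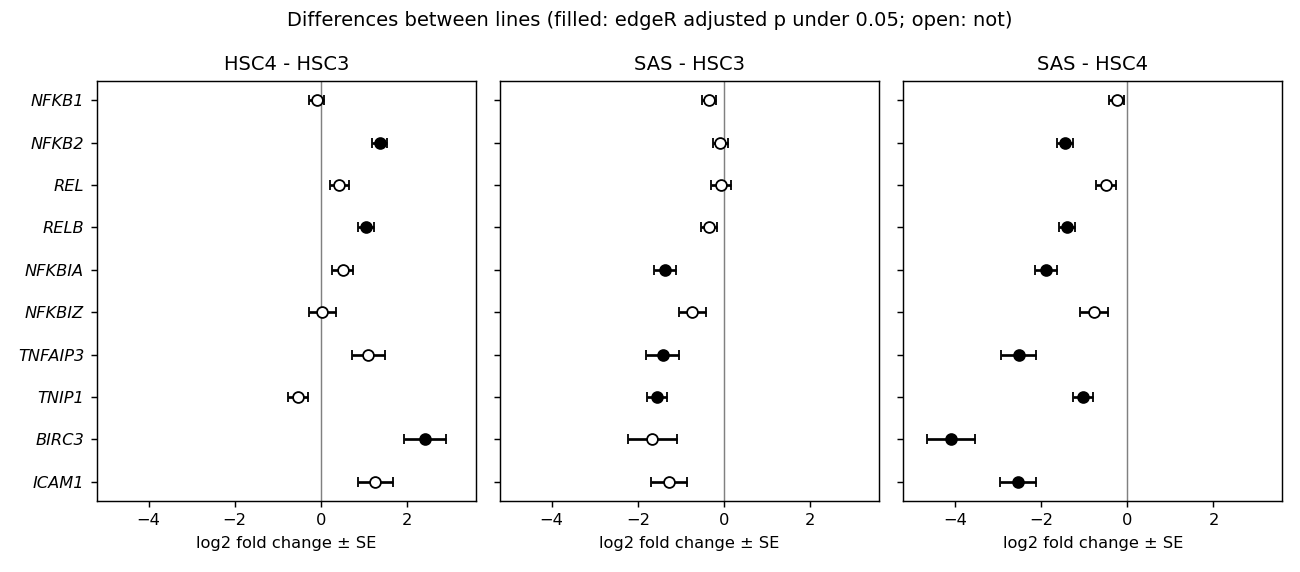
Log2 fold change with its SE between each pair of lines for the 10 genes (2 libraries per line), filled where the edgeR adjusted p was under 0.05. The values of SAS minus HSC4 all lie below 0, and NFKB2, RELB and BIRC3 are the filled points of HSC4 minus HSC3.

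Transcripts were examined next, since the table gives a value for each. For 4 genes a single protein-coding transcript held 70% or more of the RNA in every library: ICAM1-201 (96.4% to 99.2% of the gene), NFKBIA-201 (81.8% to 86.8%), RELB-201 (78% to 85%) and BIRC3-201 (70% to 89.3%). REL-201, the longer of 2 REL transcripts, held 68.1% to 85.8%. Of TNFAIP3, full-length TNFAIP3-201 held 45.7% to 49.8% in all 6 libraries, and a short transcript of 2 exons 20% to 30.2%. Such shares rest on the reads that tell transcripts of a gene apart, and 1 library per line and medium gives them no error.

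For TNIP1 the values by start site differed from the gene as a whole. Its transcripts were grouped by annotated start after their values had been seen, joining starts within 300 bases. Only groups that reached 10% of the gene in some library were kept. On the minus strand, 3 transcripts start upstream at 151087158 to 151087166, among them TNIP1-201, and 6 start downstream at 151081015 to 151081084. The upstream group measured 130 CPM in DMEM against 300 in HPLM for HSC3, 133 against 134 for HSC4, and 9.64 against 63.4 for SAS. The downstream group measured 63.9 against 66.4 CPM for HSC3, 52.6 against 48.8 for HSC4, and 59.5 against 55.1 for SAS. The downstream group was thus between 48.8 and 66.4 CPM in all 6 libraries, and the higher HPLM values of HSC3 and SAS and the low level of SAS were in the upstream group. In SAS the upstream share of TNIP1 was 13.3% in DMEM and 51.8% in HPLM, against 64.5% to 78.7% in the other libraries.

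For NFKBIZ the same grouping kept 6 starts, of which the 2 with a RefSeq promoter and several transcripts are given by library. The upstream group, at 101827991 to 101827993, measured 0 CPM in DMEM against 3.05 in HPLM for HSC3, 1.85 against 1.9 for HSC4, and 0.113 against 1.95 for SAS. The downstream group, at 101849514 to 101849526, measured 2.12 against 9.95 CPM for HSC3, 3.6 against 7.22 for HSC4, and 1.94 against 5.65 for SAS. The downstream start was higher in HPLM in all 3 lines, and the upstream start in HSC3 and SAS with HSC4 level. The other 4 starts have 1 transcript each, up to 23.6% of the gene, and did not all go the same way, as a start at 101850263 had 0.583 against 0.505 CPM for SAS. All of these values lie at 10 CPM or below, and none has an error.

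**Figure D4:**
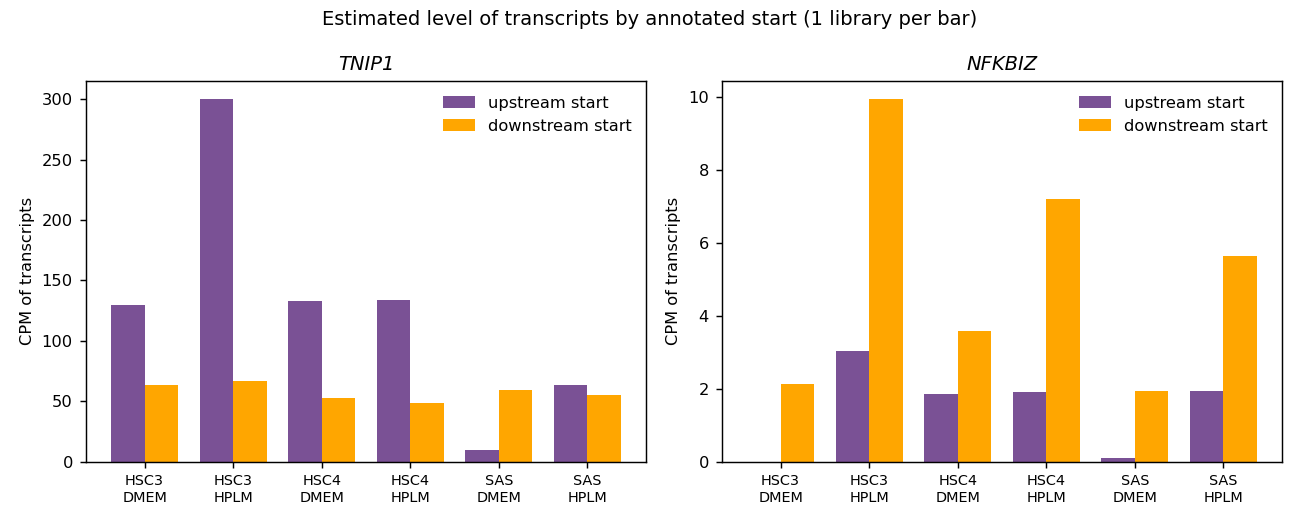
CPM of transcripts grouped by their upstream or downstream annotated start for TNIP1 (left) and NFKBIZ (right), with 1 library per bar. The downstream TNIP1 group lies between 48.8 and 66.4 CPM while the upstream group ranges from 9.64 to 300.

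Sequence before the starts was taken from RefSeq (GRCh38.p14), which held 14 promoters for 9 of the 10 genes, the exception being RELB. The kappa B consensus, the DNA motif that NF-kB dimers bind (GGG, a purine, any 2 bases, 2 pyrimidines and CC), was searched on both strands from 250 bases before to 50 after each start. It was found in 10 of the 14 promoters (71.4%) and in 8 of the 9 genes (88.9%), beside 11.3% of all 35116 promoters of that length and 17.3% of the tested genes with a promoter. ICAM1 was the gene without these letters in the window, which lies inside the GENCODE gene, since its RefSeq start is further downstream. That window holds tggaaattcc, which departs from the consensus only in its first base, so the search passed it over. The upstream TNIP1 start was not searched. Most of the 10 are known as NF-kB targets, so the share describes the choice of genes. Windows are shown 5′ to 3′ on the strand of the gene, with the match in capitals, for the feedback genes that were higher in HPLM in HSC3 and SAS and for 3 subunit genes. A match on the opposite strand reads as its reverse complement, and in REL the capitals span overlapping matches.
NFKBIA: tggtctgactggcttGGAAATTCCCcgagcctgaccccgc
TNFAIP3: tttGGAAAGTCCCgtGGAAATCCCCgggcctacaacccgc
TNIP1, downstream start: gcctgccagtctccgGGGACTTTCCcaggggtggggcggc
NFKBIZ, upstream start: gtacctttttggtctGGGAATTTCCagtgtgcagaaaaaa
NFKBIZ, downstream start: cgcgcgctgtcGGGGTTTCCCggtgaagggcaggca
BIRC3: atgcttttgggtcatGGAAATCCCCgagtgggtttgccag
NFKB2, main start: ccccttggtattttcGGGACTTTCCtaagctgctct
NFKB1: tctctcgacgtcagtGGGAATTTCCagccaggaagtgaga
REL: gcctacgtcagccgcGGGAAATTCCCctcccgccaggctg

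The NFKBIA window is chr14:35404806-35404845 (minus strand), with the match 81 to 72 bases before the RefSeq start. The TNFAIP3 window is chr6:137867189-137867228 (plus strand) and holds 2 matches, the nearer one 55 to 46 bases before the start. The TNIP1 window is chr5:151081052-151081091 (minus strand) and belongs to the downstream start, whose transcripts were level between media. The NFKBIZ windows are chr3:101827752-101827791 and chr3:101849264-101849299 (plus strand). BIRC3 is at chr11:102317270-102317309, NFKB2 at chr10:102395669-102395704, NFKB1 at chr4:102501295-102501334 and REL at chr2:60881512-60881551, all on the plus strand. The BIRC3 match shown lies 199 to 190 bases before the RefSeq start, and a further match, not shown, lies nearer at 135 to 126. The NFKB2 match shown lies 21 to 12 bases before the RefSeq start at 102395705, and a further one lies 176 to 167 bases before it. Transcripts starting at 102395693 to 102395706 held 59.6% to 75.3% of the gene, and the earliest of these starts falls on the last base of the match shown. The promoter upstream of it at 102394578 also holds matches. The NFKB1 window belongs to the RefSeq start at 102501359. Its other RefSeq promoter, at 102501934, holds no match, and the NFKB1 transcript starting nearby at 102501898 held 27.9% to 41.8% of the gene. The NFKB1 and upstream NFKBIZ windows share the match GGGAATTTCC, and NFKBIA and REL hold the same bases on the opposite strand.

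Other genes of the pathway were described by role from lists chosen with earlier results of these data known. The median log2 fold change was 0.80 for ligands and 1.12 for other targets, and within 0.05 of 0 for receptors, for adaptors and kinases, and for other negative regulators. None of the genes in these lists passed the edgeR test for the medium with all libraries. DESeq2 called 5 of the 18 genes named below, IL1A, ZC3H12A, CSF3, LCN2 and BCL2A1, with adjusted p between 7.43e-06 and 0.00322, beside 0.96% of all tested genes. These 18 were named for their small edgeR p in the same libraries, so that count is not independent of their choice. Without the HSC3 libraries edgeR called LCN2 (adjusted p = 0.0498). The counts below are at an unadjusted p under 0.05, beside 10.1% of all tested genes.

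Among the other 5 subunit and inhibitor genes (RELA, NFKBIB, NFKBIE, NFKBID and BCL3) 0 had such a p, and the median log2 fold change was 0.15. NFKBIE, which encodes the inhibitor IkB-epsilon, had 0.35 ± 0.14 (SE), BCL3, a nuclear cofactor of the inhibitor family, 0.30 ± 0.18, and NFKBIB, which encodes IkB-beta, 0.15 ± 0.09. Each of these 3 was higher in HPLM in all 3 lines.

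Of the ligand genes 7 of 11 were tested, with a median of 0.80, and 2 had a p under 0.05, both higher. They were the interleukin 1 genes IL1A (0.80 ± 0.13, SE) and IL1B (0.58 ± 0.18). TNF, the gene of tumour necrosis factor, measured 22.1 CPM in DMEM against 70.9 in HPLM for HSC3, 18.9 against 16.8 for HSC4, and 0 against 0.265 for SAS. HSC3 was highest and SAS lowest in both media. TNIP1 had the same order of lines in both media. NFKB1, NFKBIA and NFKBIZ had it in HPLM and not in DMEM, where HSC4 was highest. For NFKBIA the HPLM values of HSC3 and HSC4 were nearly equal (238.3 and 238.1 CPM). The rest of the main genes had HSC4 highest in both media. A link between TNF and these genes was not tested.

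Of the 12 receptor genes 10 were tested, with a median of −0.03, and 1 had a p under 0.05. It was CD40, a receptor of the tumour necrosis factor receptor family, with 0.40 ± 0.14 (SE). The interleukin 1 receptor chain gene IL1RAP had 0.42 ± 0.17 and TNFRSF1A, the gene of the main tumour necrosis factor receptor, −0.21 ± 0.11. Of 25 adaptor and kinase genes 24 were tested, with a median of −0.03, and 1 had a p under 0.05. MAP3K14 was not among the 27852 symbols and so could not be tested. IRAK2, a kinase gene below the interleukin 1 receptor, had 0.60 ± 0.20, the IkB kinase gene CHUK −0.22 ± 0.10 and the related IKBKE 0.55 ± 0.25.

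Of 14 genes listed as other negative regulators 13 were tested, with a median of 0.01. A p under 0.05 was found for 3, all higher in HPLM in 3 of 3 lines. ZC3H12A encodes an RNase that degrades messages induced by NF-kB and had 1.32 ± 0.25 (SE, edgeR adjusted p = 0.331). It measured 18.2 CPM in DMEM against 76.6 in HPLM for HSC3, 31.5 against 54.2 for HSC4, and 9.48 against 20.5 for SAS. TNIP3, a relative of TNIP1, had 1.75 ± 0.56 and PELI1, a ubiquitin ligase gene, 0.69 ± 0.21. For TNIP3 the levels were low, at 0.367 CPM in DMEM against 2.67 in HPLM for HSC3 and 3.77 against 7.08 for HSC4. In SAS they were 0 against 0.106 CPM, so the direction there rests on a value near 0.

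Of 24 other target genes 22 were tested, with a median of 1.12, and 13 had a p under 0.05, all higher. In all 3 lines 15 of the 22 were higher in HPLM, beside 16.9% of all tested genes, and 4 of the 10 main genes were. The 3 with the smallest p were the growth factor gene CSF3 (3.71 ± 0.49, SE), LCN2, whose product binds bacterial siderophores (2.69 ± 0.41), and the survival gene BCL2A1 (2.84 ± 0.45), none past the edgeR threshold (adjusted p = 0.207, 0.26 and 0.264). By line the median was lowest in HSC4 (0.35), above it in HSC3 (1.34) and highest in SAS (2.03).

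**Figure D5:**
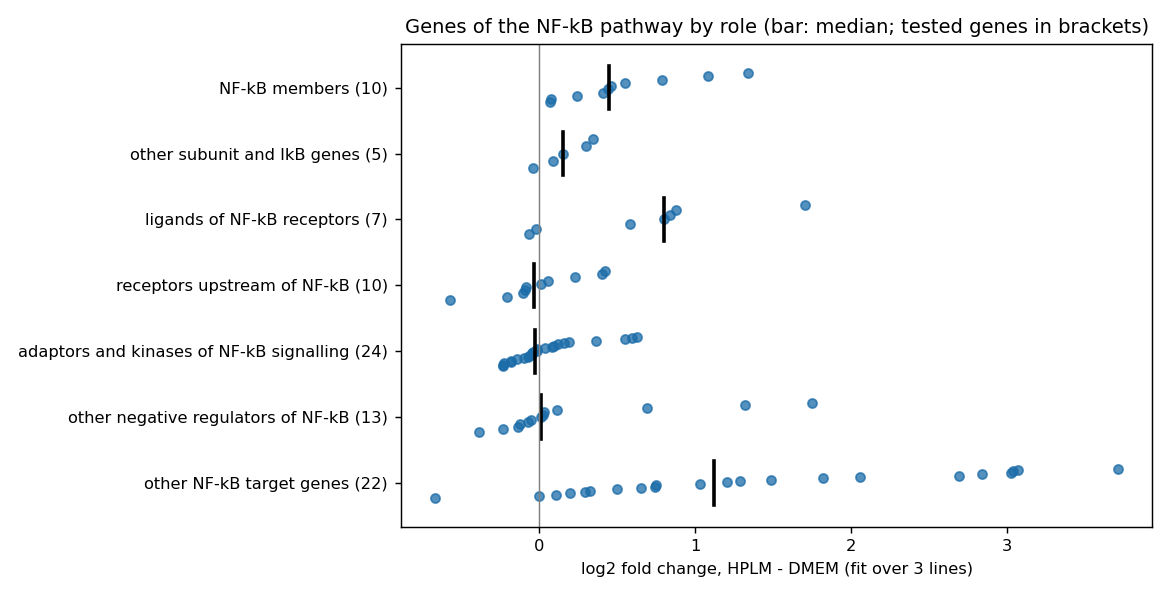
Fitted log2 fold change of HPLM minus DMEM for each tested gene of the pathway (points), by role, with the median as a bar. The medians of receptors, adaptors and other negative regulators lie near 0, and the targets reach from −0.67 to 3.71 with a median of 1.12.

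Likeness of pattern was measured by Pearson's r of log2 CPM over the 6 libraries, against 9806 genes outside the 10 with a mean of 5 CPM or more. The values are a description, and the 6 points come from only 3 lines. Each r below is the highest over those 9806 genes, so it is high in part by selection. NFKBIZ was most like the chemokine gene CXCL1 (r = 0.985), TNFAIP3 most like STK38L (0.998), ICAM1 most like LGALS1 (0.996) and NFKBIA most like CXADR (0.994). For the others the gene was CHCHD2 for TNIP1 (0.986), SAMD10 for BIRC3 (0.996), USP42 for NFKB2 (0.999), AAAS for RELB (0.998), MAPRE1 for REL (0.993) and SCAF1 for NFKB1 (0.980).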

How the data were processed

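Expected counts per transcript, labelled scaled TPM, were deposited by the authors: abundances brought to library size, so corrected for transcript length and not numbers of reads. Per the submitters' processing notes, FastQC and kallisto were used with hg38. Neither versions, annotation release nor use of strand is given in the sources used here. Columns were matched to samples by line and, for HPLM, medium, which used every sample column (0 unused). For DMEM the column name gives the line, no medium and an ending the labels leave unexplained. Every DMEM column carries that ending and no HPLM column does, so what it marks cannot be told apart from the medium. Of 161149 rows, 1312 repeats were counted once, and 6878 transcripts without a symbol (0.362% to 0.479% of a library) were left out.

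Sums per symbol were rounded to whole counts. With R 4.3.3 and edgeR 4.0.16, filterByExpr (minimum count 10, total 15, medium as group) kept 13236 genes, scaled by TMM. The quasi-likelihood fit had line and medium as terms (2 residual degrees of freedom). Adjusted p-values are Benjamini-Hochberg over all genes. SE was taken as |log2 fold change| divided by the root of F. Ratios within a line used a prior count of 2. The line pairs the libraries: deviations from the medium mean correlated at 0.779, 0.792 and 0.805 within HSC3, HSC4 and SAS. The fit was tested on simulated data. Alternatives used DESeq2 1.42.0, limma 3.58.1, other scaling, no filter and fewer libraries. P-values measure the spread over these libraries, which here is how far the lines disagree in their difference between media. They do not measure the spread between repeat cultures. Members and lists were chosen with earlier results of these data known. Named were the 10 genes, RELA, and per list the 3 tested genes of smallest p with a mean CPM of 1 or more. For each of the 10 the gene of highest Pearson's r was also named. Transcripts reaching 10% of a gene were eligible. Single cell type markers and transcript starts were named after their values were seen.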

Additional observations from a re-analysis of the deposited data

Results flagged for a closer look

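For 6 of the 10 genes the direction of the difference between HPLM and DMEM was not the same in all 3 lines, as for 65.7% of all tested genes. The gap between the highest and the lowest line on the log2 scale was 2.62 for BIRC3 (SAS against HSC4), 1.83 for ICAM1, 0.96 for NFKBIA, 0.94 for TNIP1 and 0.37 for REL (each HSC3 against HSC4), and 0.58 for NFKB1 (HSC3 against SAS). With 1 library per line and medium the difference between lines was not tested. The BIRC3 value rests on the SAS DMEM library, at 0.754 CPM.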

How the results depend on the processing

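The count of the 10 genes called for the medium was 0 in all alternatives but DESeq2, where it was 1, and leaving out a line or the line as block (no replicate block) left it at 0. Between HSC4 and HSC3 the count of 3 was 5 with no scaling factor and ran from 1 to 6 with a library left out. Between SAS and HSC3 the count of 3 was 5 with limma-trend and ran from 1 to 6. Between SAS and HSC4 it ran from 6 to 8 around 7. The other counts stayed within 1.5 times, and the cause of the moves was not tested. Directions for the medium reversed for BIRC3 without the line as block (−0.12) and without SAS (−0.067), for NFKB1 (−0.097) and REL (−0.013) without HSC3, and for RELA without HSC4 (0.04). None of these passed a test, nor did the reversals between lines. HSC4 minus HSC3 reversed for NFKB1 with no scaling factor (0.035) and without HSC3 HPLM (0.15). It reversed for NFKBIZ with limma-voom (−0.15) and without HSC3 DMEM (−0.31), HSC4 DMEM (−0.51) or SAS HPLM (−0.002). SAS minus HSC3 reversed for NFKB2 without HSC3 DMEM (0.074) or SAS DMEM (0.21) and for REL without HSC3 HPLM (0.062). The causes were not tested. The 90 alternative values of ratios within a line, with another prior count or scaling, kept their direction. With no scaling factor the median log2 fold change of all genes was −0.05 in place of 0.00, and 36.7% in place of 55.0% of genes at an unadjusted p under 0.05 were higher in HPLM. Values at a few CPM, such as REL, NFKBIZ and BIRC3 in SAS, are limited by depth.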
